A study of Mus musculus with 6 samples.

Results

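The primary, or azurophil, granules of neutrophils were followed through 6 genes: Mpo, Elane, Prtn3, Ctsg, Ms4a3 and Prss57. The set was defined by gene name and matched by symbol, which found all 6 among the 54532 genes of the table. All 6 were also among the 13619 genes kept for testing, those with a mean of at least 1 FPKM (fragments per kilobase of exon, scaled to the size of the library, a level that corrects for gene length). RNA came from bone of female C57BL/6J mice aged 16 weeks. One group of 3 libraries was wild type (WT) and the other group of 3 libraries was MIR29cb2-/- (KO), the label for mice without the microRNA cluster that encodes miR-29b-2 and miR-29c. The labels name no further allele or treatment in either group. They name neither the bone nor any removal of marrow, and they do not tie a library to its own animal, so each p-value reflects variation among libraries that may be technical.

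Neutrophils are made in bone marrow from granulocyte-monocyte progenitors, and they build their granules in waves. The primary granule proteins are transcribed at the promyelocyte stage, and their genes are switched off before the secondary and tertiary granule genes reach their peak. Mature neutrophils therefore carry the proteins but little of the RNA, and RNA of these genes in marrow is used as a mark of early neutrophil precursors. Mpo encodes myeloperoxidase, which makes hypochlorous acid. Elane, Prtn3 and Ctsg encode the serine proteases neutrophil elastase, proteinase 3 and cathepsin G. Prss57 encodes a related granule serine protease, NSP4. Ms4a3 encodes a membrane-spanning protein of granulocyte-monocyte progenitors and early neutrophil precursors and not a granule enzyme.

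The deleted microRNAs share a seed, the bases that pair with target messages, and their mature sequences (RefSeq, GRCm38.p6) are printed because the seed was searched for in the 6 genes. Capitals mark bases 2 to 8.
mmu-miR-29b-3p: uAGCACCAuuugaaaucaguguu
mmu-miR-29c-3p: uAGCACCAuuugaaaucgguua
The DNA letters complementary to that seed are TGGTGCT. They were found in the annotated 3′ UTR of 0 of the 6 genes and of 1897 of 11706 kept genes with a 3′ UTR (16.2%). The longest annotated 3′ UTRs of Ctsg, Elane, Ms4a3, Prtn3 and Mpo are short, at 81, 101, 165, 201 and 226 bases, and that of Prss57 is 1798 bases.

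Promoters are shown because all 6 genes were higher in KO bone. RefSeq windows from 250 bases before to 50 after the transcript start (GRCm38.p6) were held for 5 of the 6 genes, all but Prss57. The RefSeq starts of Mpo, Elane and Prtn3 lie inside the longer GENCODE spans given for these genes, so part of the letters before the start lies within those spans. Short motifs of factors known from myeloid cells were searched on both strands in these and in all 32851 promoters of the table. GAGGAA, the core used here for PU.1, was in all 5 windows and in 28.3% of all promoters. CAACNG or TAACNG, the core of MYB, was in 4 windows (Mpo, Elane, Prtn3 and Ctsg) and in 49.7% of all promoters. TTGCNNAA, for C/EBP factors, was in Ms4a3 alone among the 5 and in 10.8% of all promoters. TGTGGT or TGCGGT, for RUNX factors, was in Ctsg alone among the 5 and in 22.4% of all. AAATCA, for GFI1, and AGATAA, for GATA factors, were in 0 of the 5 windows and in 14.0% and 11.2% of all promoters. The motifs found did not overlap each other, and a match describes letters and not binding. The stretches that hold the matches follow, on the strand of the gene, with matched motifs in capitals; the second MYB matches of Elane and Ctsg and the RUNX match of Ctsg are read on the other strand.
Mpo, chr11:87793534-87793633, plus strand: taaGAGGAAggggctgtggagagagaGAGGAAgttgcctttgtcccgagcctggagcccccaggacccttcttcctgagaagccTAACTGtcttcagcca
Elane, chr10:79886217-79886307, plus strand: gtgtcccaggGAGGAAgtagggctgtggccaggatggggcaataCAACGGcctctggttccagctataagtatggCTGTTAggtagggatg
Prtn3, chr10:79879562-79879626, plus strand: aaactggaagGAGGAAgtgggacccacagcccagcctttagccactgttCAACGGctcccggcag
Ctsg, chr14:56102595-56102800, minus strand: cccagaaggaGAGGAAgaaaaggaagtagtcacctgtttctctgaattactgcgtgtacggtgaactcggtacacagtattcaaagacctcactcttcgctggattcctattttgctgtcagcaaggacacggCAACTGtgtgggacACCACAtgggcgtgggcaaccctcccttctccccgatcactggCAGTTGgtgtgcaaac
Ms4a3, chr19:11640802-11640826, minus strand: tggacttgctGAGGAATTGCACAAa
Elane and Prtn3 had a similar layout. In Elane, GAGGAA lay from -85 to -80 and CAACGG from -51 to -46, counted from the transcript start, and in Prtn3 they lay from -95 to -90 and from -56 to -51. In Ms4a3 the PU.1 and C/EBP letters adjoined each other after the start, from 36 to 41 and from 42 to 49.

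Between 16727111 and 20118034 reads per library could be recovered from the steps in the FPKM values. Of the 13619 genes tested, 183 rose in KO bone and 520 fell (limma, Benjamini-Hochberg adjusted p under 0.05), and the median log2 difference was 0.06. With each library scaled to 14 pan-leukocyte genes the split was 87 higher and 2331 lower and the median moved to -0.27. With limma's library weights it was 1551 higher and 1803 lower. WT replicate 2 and KO replicate 1 stood apart, summing to 489576 and 487102 FPKM while the remaining 4 summed to 355787 to 404994. In both, the genes with longer exons sat lower against the mean of all 6 libraries (Spearman's rho of -0.33 over genes, which are not replicates). In the remaining 4 libraries rho was 0.13 to 0.33. The microRNA genes Mir29b-2 and Mir29c were listed at 0 in every library, so these libraries do not show the deletion directly. Their host transcript A330023F24Rik separated the groups, at 0.197, 0.153 and 0.136 FPKM in WT and 2.51, 3.25 and 4.08 in KO.

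All 6 primary granule genes were higher in every KO library than in any WT library, and 5 of them, Ctsg, Prtn3, Ms4a3, Prss57 and Mpo, rose by the test. KO means were 2.08 to 3.12 times WT means. As background, 1.34% of the genes tested rose and 3.82% fell, and 14.7% had all 3 KO libraries above all 3 WT libraries. The median log2 difference of the 6 genes was 1.34, against 0.06 over all genes tested. All log2 differences are KO minus WT on the log2(FPKM + 1) scale with limma's standard error (SE), and adjusted p-values are limma's over all genes tested.

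Mpo occupies 87793581 to 87804413 of chromosome 11, plus strand (ENSMUSG00000009350, mm10, as for all gene positions). Its level was 192, 213 and 235 FPKM in WT replicates 1 to 3 and 473, 377 and 482 in KO. The lowest KO library was above the highest WT library. Group means were 214 ± 21.4 and 444 ± 58.3 FPKM (SD, n = 3), and the log2 difference was 1.05 (SE 0.18, adjusted p = 0.029). Of the 6 genes, Mpo had the smallest ratio, 2.08. A predicted gene, Gm11505, lies inside Mpo on the other strand and reached at most 0.246 FPKM.

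Ctsg occupies 56099881 to 56102574 of chromosome 14, minus strand (ENSMUSG00000040314). WT libraries gave 159, 177 and 178 FPKM, a narrow range, and KO libraries gave 637, 486 and 482. The means were 171 ± 11.0 and 535 ± 88.7 FPKM (SD, n = 3), a ratio of 3.12. The log2 difference was 1.63 (SE 0.18, adjusted p = 0.0104), the largest of the 6 and rank 21 among the 13619 genes ordered by rise.

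Prtn3 and Elane are neighbours on chromosome 10, read in the same direction. Prtn3 spans 79874476 to 79883174 (ENSMUSG00000057729) and Elane spans 79886247 to 79888215 (ENSMUSG00000020125), both on the plus strand. Prtn3 was at 229, 411 and 302 FPKM in WT and at 1097, 736 and 819 in KO. Its means were 314 ± 91.4 and 884 ± 189 FPKM (SD, n = 3), a ratio of 2.81, and the log2 difference was 1.51 (SE 0.28, adjusted p = 0.0336). WT replicate 1 was the lowest library and KO replicate 1 the highest for both proteases.

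Elane, the gene of neutrophil elastase, did not pass the threshold although its groups were apart. It was at 358, 515 and 474 FPKM in WT and at 1321, 784 and 978 in KO. The means were 449 ± 81.2 and 1027 ± 272 FPKM (SD, n = 3), a ratio of 2.29. The log2 difference was 1.18 (SE 0.27, 95% interval 0.54 to 1.81, adjusted p = 0.0553). Its SE was the second largest of the 6, and the interval includes the log2 difference of each of the other 5 genes. Elane was the most abundant of the 6 per length in both groups, rank 97 of the genes tested in WT and rank 31 in KO.

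Prss57 spans 79781474 to 79790961 on the minus strand of chromosome 10 (ENSMUSG00000020323), in the same chromosome region as Prtn3 and Elane. It was the least abundant, at 8.09, 9.82 and 9.84 FPKM in WT and 27.9, 18.3 and 23.3 in KO. The means were 9.25 ± 1.00 and 23.2 ± 4.83 FPKM (SD, n = 3), a ratio of 2.50, with a log2 difference of 1.22 (SE 0.17, adjusted p = 0.0167). Behind these levels stood 474 to 545 reads per WT library and 905 to 1317 per KO library, the fewest of the 6. Prss57 shares 1157 bases of span with Fstl3 on the other strand, which was at 0.608 to 1.33 FPKM in all 6 libraries.

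Ms4a3, the membrane protein of the set, occupies 11629496 to 11640851 of chromosome 19, minus strand (ENSMUSG00000024681). It was at 45.1, 72.0 and 56.9 FPKM in WT and at 179, 147 and 147 in KO. The means were 58.0 ± 13.5 and 158 ± 18.8 FPKM (SD, n = 3), a ratio of 2.72, with a log2 difference of 1.45 (SE 0.20, adjusted p = 0.0167). The gene without a granule product thus lay within the range of the proteases.

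**Figure D1:**
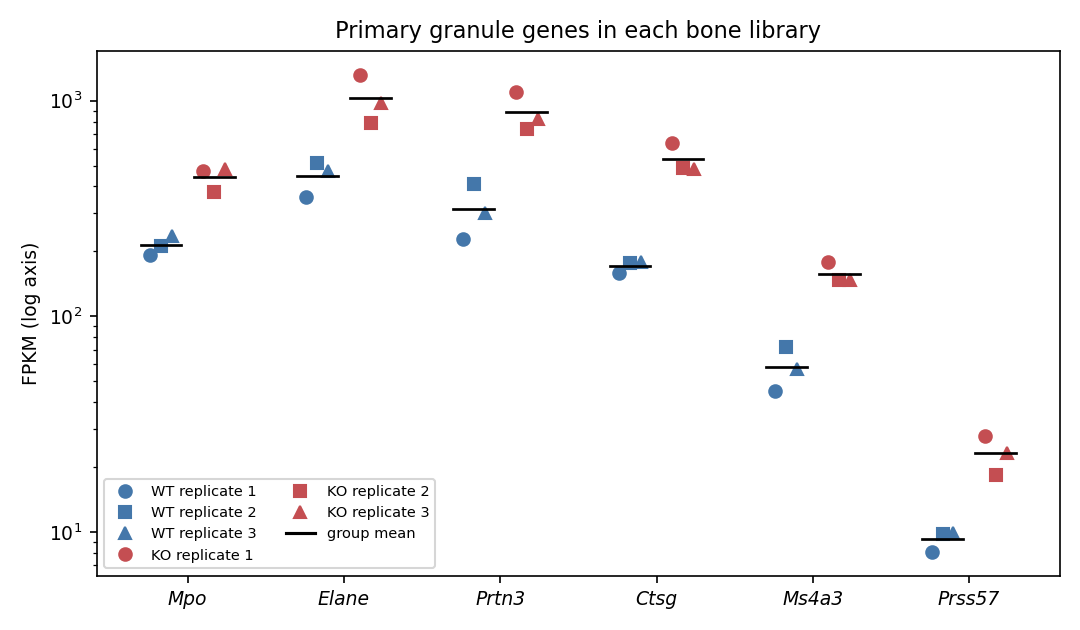
Level of each of the 6 genes (FPKM, log axis) in the 3 WT libraries (blue) and the 3 KO libraries (red), with the marker shape giving the replicate number and black lines the group means. For each gene the 3 red points lie above the 3 blue points, and the levels run from Elane (449 and 1027 FPKM) down to Prss57 (9.25 and 23.2).

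A two-sided exact permutation test of each gene gave p = 0.1, the smallest that 3 against 3 libraries allow. Over all genes tested, 703 passed by limma with every library and 62 to 418 with 1 left out. Of the 6 genes, 5 passed with every library and fewer with any 1 left out. The numbers were 4 without WT replicate 2, 3 without WT replicate 3 or KO replicate 3, and 2 without KO replicate 1 or KO replicate 2. Without WT replicate 1, 0 passed, and Ctsg was nearest at an adjusted p of 0.0516. Prss57 and Ctsg lost their calls only without that library (Prss57 at 0.0704), Ms4a3 also without KO replicate 1 or 2 (highest adjusted p 0.0707), Prtn3 without any library but WT replicate 2 (highest 0.102) and Mpo whichever library was left out (0.0611 to 0.1). With no filter on low values 1 passed. Without both WT replicate 2 and KO replicate 1, 4 passed, with a median log2 difference of 1.32.

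The order of levels per length changed between the groups at 1 place. In WT bone it was Elane, Prtn3, Mpo, Ctsg, Ms4a3 and Prss57, and in KO bone Ctsg stood above Mpo. In WT, Elane overlapped Prtn3 and Prtn3 overlapped Mpo, while Mpo and Ctsg did not overlap. In KO, Elane overlapped Prtn3, and Ctsg and Mpo met at 482 FPKM.

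The ratio of Mpo to Ctsg within a library was 1.21, 1.20 and 1.32 in WT and 0.743, 0.776 and 1.00 in KO. Of the 15 ratios between the 6 genes, 5 had groups that did not overlap and 10 overlapped. Elane over Prtn3 was 1.56, 1.25 and 1.57 in WT and 1.20, 1.07 and 1.19 in KO, and Elane over Ctsg was 2.26, 2.91 and 2.66 against 2.07, 1.61 and 2.03. Mpo over Prss57 was also lower in KO, at 23.1 ± 1.24 and 19.4 ± 2.13 (SD, n = 3), and Ctsg over Prss57 higher, at 18.6 ± 0.887 and 23.3 ± 2.99. Each of these 5 gave an exact permutation p of 0.1 (two-sided), the smallest this design allows, and 0.3 after Benjamini-Hochberg adjustment over the 15 ratios, so the test cannot tell whether the ratios differ and they are given as a description.

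Within the groups the 6 genes shared the order of libraries in part. The median deviation of the 6 from their group mean, on the log2 scale, was -0.24, 0.15 and 0.07 in WT replicates 1 to 3 and 0.27, -0.24 and -0.06 in KO. All 6 were lowest in WT replicate 1. Over the 6 libraries, Pearson's r of each gene with the mean of the other members was 0.974 to 0.992, a description that includes the difference between the groups and shared depth and composition of each library.

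Set against other blood cell genes of the same library, the primary granule genes were again higher in KO. Their summed level was 992, 1398 and 1256 FPKM in WT and 3735, 2547 and 2929.7 in KO. Divided by the summed level of 12 secondary granule genes it was 0.139, 0.113 and 0.118 in WT and 0.243, 0.197 and 0.236 in KO. Divided by 14 pan-leukocyte genes it was 0.749, 0.833 and 0.788 against 1.64, 1.38 and 1.52. Divided by 17 tertiary granule and mature neutrophil genes it was 0.0598, 0.0439 and 0.0496 against 0.0933, 0.0716 and 0.0962. The groups were apart in all 3 ratios, while secondary granule genes over pan-leukocyte genes overlapped, at 5.40, 7.37 and 6.67 in WT and 6.76, 6.99 and 6.42 in KO. A few abundant genes carried the granule sums. In WT replicate 1, Ngp (2849.9 FPKM) and Camp (1880.1) made most of the 7157 FPKM of the secondary granule list. S100a9 (10006) and S100a8 (5016) made most of the 16574 FPKM of the mature neutrophil list there. The ratios therefore describe these genes more than the lists.

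**Figure D2:**
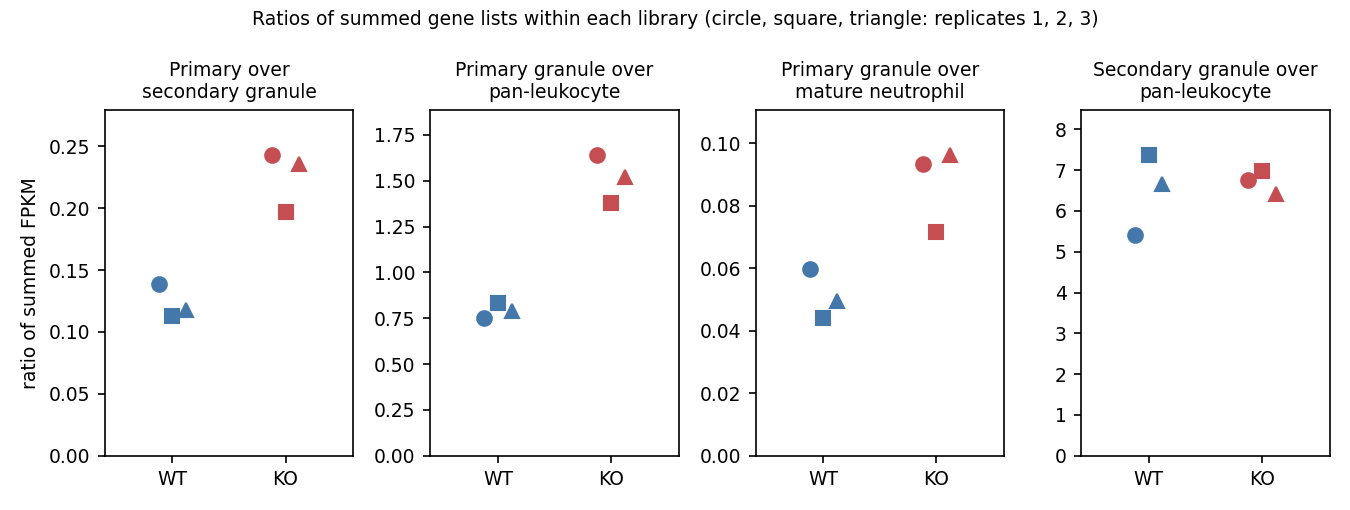
Ratios of summed FPKM of gene lists within each library, from axes that start at 0, for WT (blue) and KO (red), with circles, squares and triangles for replicates 1, 2 and 3. The primary granule genes over secondary granule, pan-leukocyte and mature neutrophil genes are higher in all 3 KO libraries, and the secondary granule genes over pan-leukocyte genes overlap between the groups. A few abundant genes carry the secondary granule and mature neutrophil sums.

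In bulk bone, more cells of a type and more RNA per cell cannot be told apart. Listed genes of other cell types of bone also differed between the groups. All 11 cartilage and fat genes fell, with a median log2 difference of -2.99, and their summed level was 739.7 to 1147 FPKM in WT and 71.9 to 174 in KO. Of 14 bone cell genes 4 fell, with Alpl (-1.67, adjusted p = 0.0293), Phex (-1.09, adjusted p = 0.0211) and Dmp1 (-1.03, adjusted p = 0.0415) among them, and the summed level was 2309 to 4359.6 FPKM in WT and 907 to 1887 in KO. Of the 14 pan-leukocyte genes 1 rose (Vav1, 0.54, adjusted p = 0.0447) and 13 did not pass, with a median of 0.37. Their summed levels were 1325 to 1679 FPKM in WT and 1853 to 2272 in KO. Differences were above 0 for 13 of these 14 genes. In 9 of the 14, every KO library was above every WT library, as in 14.7% of all genes tested. With 1 library left out, the calls of Vav1 and Dmp1 were lost whichever library was left out, that of Alpl without any but WT replicate 3 and that of Phex without WT replicate 1 or any KO replicate (highest adjusted p 0.153, 0.157, 0.116 and 0.0842). The part of tissue makeup in the difference of the primary granule genes was not tested. When each library was scaled to the pan-leukocyte genes, all 6 primary granule genes passed the threshold, with log2 differences of 0.66 for Mpo, 0.79 for Elane, 0.86 for Prss57, 1.06 for Ms4a3, 1.12 for Prtn3 and 1.24 for Ctsg, against a median of -0.27 over all genes.

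**Figure D3:**
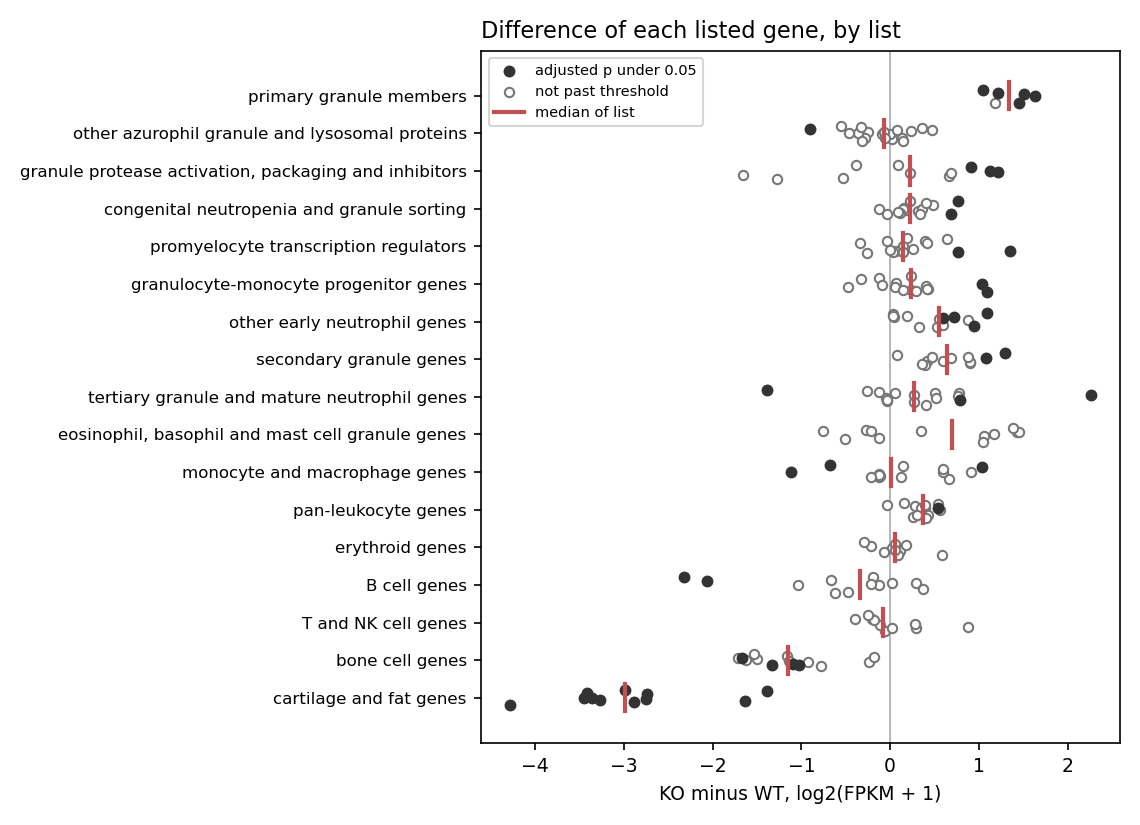
Difference of every tested gene of each list (KO minus WT, log2(FPKM + 1)), with filled points for adjusted p under 0.05, open points for genes that did not pass and red bars for list medians. The primary granule genes lie between 1.05 and 1.63 with a median of 1.34, the other granulocyte lists have medians of -0.07 to 0.70, and the cartilage and fat genes lie furthest to the left, with a median of -2.99.

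Genes for handling the granule proteases rose in part. Of 11 genes of protease activation, packaging and inhibition, 3 rose, 0 fell and the median was 0.22. Ctsc encodes cathepsin C, the dipeptidase that activates the granule serine proteases, and it was at 21.0, 18.2 and 23.4 FPKM in WT and 41.3, 39.5 and 38.7 in KO (log2 difference 0.91, SE 0.13, adjusted p = 0.0167). Serpinb1a, a cytosolic inhibitor of elastase, proteinase 3 and cathepsin G, was at 76.6, 98.2 and 104 FPKM against 231, 196 and 183 (1.13, SE 0.18, adjusted p = 0.0234). Cst7, which encodes cystatin F, an inhibitor of cathepsin C, was at 18.9, 24.8 and 25.3 FPKM against 69.4, 44.9 and 52.1 (1.22, SE 0.20, adjusted p = 0.0239). Of the 11 genes, 4 were higher in every KO library than in any WT library, with Ctsc, Serpinb1a and Cst7 among them. The share over all genes tested was 14.7%. Differences were above 0 for 7 of the 11, and other inhibitors of the list lay on both sides of 0. A2m, the broad protease inhibitor alpha-2-macroglobulin, was at 2.97, 8.94 and 2.01 FPKM in WT and 0.808, 0.622 and 0.272 in KO (-1.66, adjusted p = 0.0738), the difference furthest from 0 in the list. Serpina1a, an alpha-1-antitrypsin gene with close copies, was at 2.73, 3.89 and 0.454 FPKM against 0.428, 0.313 and 0 (-1.27, adjusted p = 0.154). With pan-leukocyte scaling 3 of the 11 rose and 2 fell, with a median of -0.17. Srgn, the proteoglycan core that binds the proteases in granules, had a log2 difference of 0.66 (adjusted p = 0.163). The inhibitor gene Stfa1 had one of 0.68 (adjusted p = 0.242) and the secreted elastase inhibitor Slpi one of 0.22 (adjusted p = 0.711). A2m, Serpina1a, Srgn, Stfa1 and Slpi were named after their values were seen. With 1 library left out, Ctsc lost its call without WT replicate 1, KO replicate 1 or KO replicate 2 (highest adjusted p 0.0816), Serpinb1a also without WT replicate 2 (0.0946), and Cst7 without any but WT replicate 3 (0.0904).

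The other list of azurophil granule and lysosomal proteins held no gene that rose. Of 19 tested, 0 rose and 1 fell, the median log2 difference was -0.07, and Bpi was below the filter. The gene that fell was Lyz1, a lysozyme gene of low level in these libraries, at 2.23, 2.56 and 3.11 FPKM in WT and 0.764, 1.09 and 0.961 in KO (-0.90, SE 0.15, adjusted p = 0.0255). With any 1 library left out its adjusted p was 0.0573 to 0.0842. Lyz1 has a near-identical neighbour, Lyz2, so the assignment of its reads is uncertain. Lyz2, also in the list, was at 2201, 2833 and 2990 FPKM in WT and 2419, 2513 and 2712 in KO. Its difference was -0.06 (adjusted p = 0.936), and it was named after its values were seen. Most of the proteins in the list are lysosomal and are made in many cell types. The lysosomal glycoprotein gene Cd68 had a log2 difference of -0.55 (adjusted p = 0.0923), and Gusb, beta-glucuronidase, one of 0.47 (adjusted p = 0.0966). With pan-leukocyte scaling 0 of the 19 rose and 8 fell, with a median of -0.46. Over all 13619 genes 2331 fell with that scaling, with a median of -0.27.

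Of 15 genes of congenital neutropenia and granule sorting, 2 rose, 0 fell and the median was 0.22. Gfi1, a transcriptional repressor needed for neutrophil differentiation and one of the regulators of Elane, was at 9.22, 9.25 and 9.67 FPKM in WT and at 16.1, 16.5 and 17.6 in KO (0.77, SE 0.10, adjusted p = 0.0148). Rab27a, a small GTPase of granule exocytosis, was at 20.2, 23.4 and 25.2 FPKM against 35.2, 36.8 and 40.6 (0.69, SE 0.13, adjusted p = 0.0343). Gfi1 lost its call without WT replicate 1 or KO replicate 2 (highest adjusted p 0.0732), and Rab27a whichever library was left out (0.0577 to 0.136) and also with scaling to the pan-leukocyte genes (0.31, adjusted p = 0.119). Its partner Unc13d had a log2 difference of 0.36 (adjusted p = 0.127), which turned to -0.02 with that scaling.

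Few transcription factors of the promyelocyte stage passed the test. Of 15, 2 rose and 0 fell, with a median of 0.14. Besides Gfi1, Cebpb, the C/EBP factor of emergency granulopoiesis, rose, from 14.8, 27.8 and 12.9 FPKM to 36.5, 48.1 and 55.9 (1.35, SE 0.30, adjusted p = 0.0495). That call was at the threshold, and it was lost with a pseudocount of 0.1, with pan-leukocyte scaling (0.97, adjusted p = 0.068) and without any 1 library but WT replicate 2 (highest adjusted p 0.162). Cebpe, needed for secondary granules, had a log2 difference of 0.64 (adjusted p = 0.158). Of the factors whose motifs were searched, Spi1 (PU.1) had a difference of 0.42 (adjusted p = 0.22), Myb one of 0.26 (adjusted p = 0.266), Cebpa one of -0.04 (adjusted p = 0.891) and Runx1 one of 0.00 (adjusted p = 0.992); these 4 were named after their values were seen.

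Of 15 granulocyte-monocyte progenitor genes, 2 rose, 0 fell and the median was 0.23. F13a1, the A chain of a clotting factor that monocytic cells also make, rose from 31.9, 27.3 and 31.8 FPKM to 57.3, 70.4 and 62.8 (1.04, SE 0.13, adjusted p = 0.0148), a call lost without WT replicate 1 or KO replicate 2 (highest adjusted p 0.0717). Csf2rb, the shared beta chain of the GM-CSF receptor family, rose from 16.7, 10.3 and 15.8 FPKM to 25.7, 32.9 and 34.4 (1.09, SE 0.21, adjusted p = 0.0354), and its adjusted p was 0.0781 with pan-leukocyte scaling and 0.055 to 0.136 with 1 library left out. Csf2ra, the alpha chain, had a difference of 0.43 (adjusted p = 0.0913).

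Of 13 other early neutrophil genes, 4 rose and 0 fell. All 13 differences were above 0, as were those of 13 of the 14 pan-leukocyte genes. The median of the early neutrophil genes was 0.55, against 0.06 over all genes tested. Plac8, a small protein of myeloid precursors, was at 132, 155 and 155 FPKM in WT and 410.1, 272 and 280.4 in KO (1.09, SE 0.21, adjusted p = 0.0344). Calr, the chaperone calreticulin, was at 145, 184 and 163 FPKM against 372, 267 and 314 (0.94, SE 0.19, adjusted p = 0.039). Alas1, the first enzyme of haem synthesis, on which the haem protein myeloperoxidase depends, was at 15.4, 20.9 and 17.5 FPKM against 33.5, 27.6 and 29.4 (0.72, SE 0.15, adjusted p = 0.0411). With 1 library left out, the highest adjusted p was 0.113 for Plac8 and 0.126 for Calr, whose calls were lost whichever library was left out, and 0.131 for Alas1, lost without any but WT replicate 2. With pan-leukocyte scaling 2 of the 13 passed and Alas1 did not (0.35, adjusted p = 0.0835), and without both WT replicate 2 and KO replicate 1, 1 did. The fourth gene that rose, Hk3, a hexokinase of myeloid cells, had a difference of 0.59 (adjusted p = 0.048) and was named after its values were seen.

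The later granule genes had smaller median differences than the primary granule genes, and that contrast between lists was not tested. Of 12 secondary granule genes, 2 rose and 0 fell, with a median of 0.64. Chil3, a chitinase-like protein, rose from 622, 865 and 815 FPKM to 1974, 2247 and 1439 (1.29, SE 0.27, adjusted p = 0.0451). Lrg1, a leucine-rich glycoprotein of granules, rose from 67.3, 116 and 87.5 FPKM to 225, 174 and 168 (1.08, SE 0.23, adjusted p = 0.0464). Chil3 lost its call whichever library was left out (adjusted p 0.0697 to 0.178) and Lrg1 without any but WT replicate 2 (highest 0.146). All 12 differences were above 0, as were those of 13 of the 14 pan-leukocyte genes, and the median over all genes tested was 0.06. With pan-leukocyte scaling 2 of the 12 passed and their median was 0.25. Without both WT replicate 2 and KO replicate 1, 0 of the 12 passed, with a median of 0.65. Of the 12 genes, 8 were higher in every KO library than in any WT library, as were 14.7% of all genes tested. An unadjusted limma p under 0.05 was reached by 2812 of the 13619 genes tested and by 7 of the 12. Among those that did not pass, Lcn2, the siderophore-binding lipocalin, had a difference of 0.90 (adjusted p = 0.101) with groups apart, Ltf, lactoferrin, had a difference of 0.39 (adjusted p = 0.412), Ngp one of 0.36 (adjusted p = 0.629) and Camp, the cathelicidin, one of 0.08 (adjusted p = 0.941). These 4 were named after their values were seen.

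Of 16 tertiary granule and mature neutrophil genes, 2 rose and 1 fell, with a median of 0.27. Prok2, a chemokine-like peptide, rose from 0.608, 1.36 and 0.405 FPKM to 8.53, 7.19 and 6.51 (2.26, SE 0.21, adjusted p = 0.00712). Mmp25, a membrane-bound matrix protease, rose from 12.1, 8.82 and 12.5 FPKM to 17.7, 20.5 and 21.3 (0.79, SE 0.16, adjusted p = 0.0387), and did not pass with pan-leukocyte scaling (adjusted p = 0.144). Il1b, interleukin-1 beta, fell from 16.8, 20.1 and 16.0 FPKM to 4.78, 4.61 and 9.82 (-1.39, SE 0.26, adjusted p = 0.0343). The mature genes thus moved in both directions. Prok2 passed whichever library was left out, whereas Mmp25 was lost whichever library was left out (0.0601 to 0.15) and Il1b without any but KO replicate 3 (highest 0.126).

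Lists of other cells that use related granule proteins were examined beside the primary granule genes. Of 12 eosinophil, basophil and mast cell genes 0 rose and 0 fell by limma, and 3 had an unadjusted p under 0.05, against 2812 of the 13619 genes tested. Their median was 0.70, but their summed level was uneven, at 1652, 802 and 773 FPKM in WT and 7490, 633 and 1749.6 in KO, with KO replicate 1 far above the rest. Without both that library and WT replicate 2 their median was -0.08, and that of the primary granule genes was 1.32. The basophil protease gene Mcpt8, a neighbour of Ctsg, had a difference of -0.76 (adjusted p = 0.0856), and the mast cell genes Mcpt4, Cma1 and Tpsb2 were below the filter. Of 14 monocyte and macrophage genes 1 rose (F13a1) and 2 fell, with a median of 0.01. Csf1r, the receptor of macrophage colony-stimulating factor, fell from 39.4, 35.2 and 34.5 FPKM to 22.3, 23.6 and 21.0 (-0.68, SE 0.11, adjusted p = 0.0276), and the chemokine receptor gene Cx3cr1 fell by 1.12 on the log2 scale (adjusted p = 0.0359). Csf1r lost its call whichever library was left out (adjusted p 0.055 to 0.103) and Cx3cr1 without any but KO replicate 2 (highest 0.105). Summed monocyte and macrophage levels overlapped, at 671 to 759.8 FPKM in WT and 731 to 931 in KO.

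No gene of the erythroid and lymphoid lists rose. Of 11 erythroid genes 0 passed by limma, also unadjusted, with a median of 0.06. Of 10 T and NK cell genes 0 passed, 2 had an unadjusted p under 0.05 (a share like that of all genes tested) and the median was -0.09. Their largest difference was that of Nkg7, a protein of cytotoxic granules (0.88, adjusted p = 0.0879). Nkg7 was also counted in the list of other early neutrophil genes. Of 12 B cell genes 2 fell and 0 rose, with a median of -0.35. Both that fell, Vpreb1 (-2.32, adjusted p = 0.022) and Igll1 (-2.06, adjusted p = 0.0254), encode the surrogate light chain of B cell precursors. Their calls were lost without WT replicate 1, WT replicate 2 or KO replicate 1 (highest adjusted p 0.0904 and 0.0939), and that of Igll1 also without KO replicate 3.

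Genes next to the 6 were examined within 50 kb. Cfd, complement factor D or adipsin, starts 2638 bases after the end of Elane on the same strand and fell while Prtn3 rose. Cfd was at 398, 491 and 280.4 FPKM in WT and 31.2, 20.4 and 9.90 in KO (-4.28, SE 0.40, adjusted p = 0.00712), and it belongs to the fat genes above. Plppr3, a phospholipid phosphatase-related gene on the other side of Prtn3, rose from 6.32, 7.32 and 7.01 FPKM to 17.9, 15.2 and 15.7 (1.13, adjusted p = 0.00847). Plppr3 runs on the opposite strand and shares 159 bases of span with Prtn3, whose level is far higher, and whether the counting used strand is not known, so its reads cannot be told apart from those of Prtn3 there. The other 4 tested genes in the window of Elane, Ptbp1, R3hdm4, Arid3a and Med16, did not pass. Arid3a was nearest, with a difference of 0.59 (adjusted p = 0.0974). Cfd and Plppr3 passed whichever library was left out. In the windows of Prss57 and Mpo, 0 of 3 and 0 of 5 tested genes passed by limma, and 1 and 2 had an unadjusted p under 0.05. In the windows of Elane and Prtn3, which hold each other, 4 of 7 tested genes had such a p. The windows of Ms4a3 and Ctsg held 2 of 3 and 1 of 1. Of all 13619 genes, 2812 reached that level. Lpo, a peroxidase gene next to Mpo, was below the filter, at 0.177 to 0.645 FPKM.

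Near Ms4a3, the related gene Ms4a6d rose from 5.65, 6.91 and 6.04 FPKM to 20.9, 17.4 and 11.8 (1.26, adjusted p = 0.0241). Ms4a2, the beta chain of the IgE receptor of basophils and mast cells, had a difference of 0.35 (adjusted p = 0.102). The call of Ms4a6d was lost without any 1 library but KO replicate 3 (highest adjusted p 0.102). Whether the 2 family members differ in response was not tested.

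**Figure D4:**
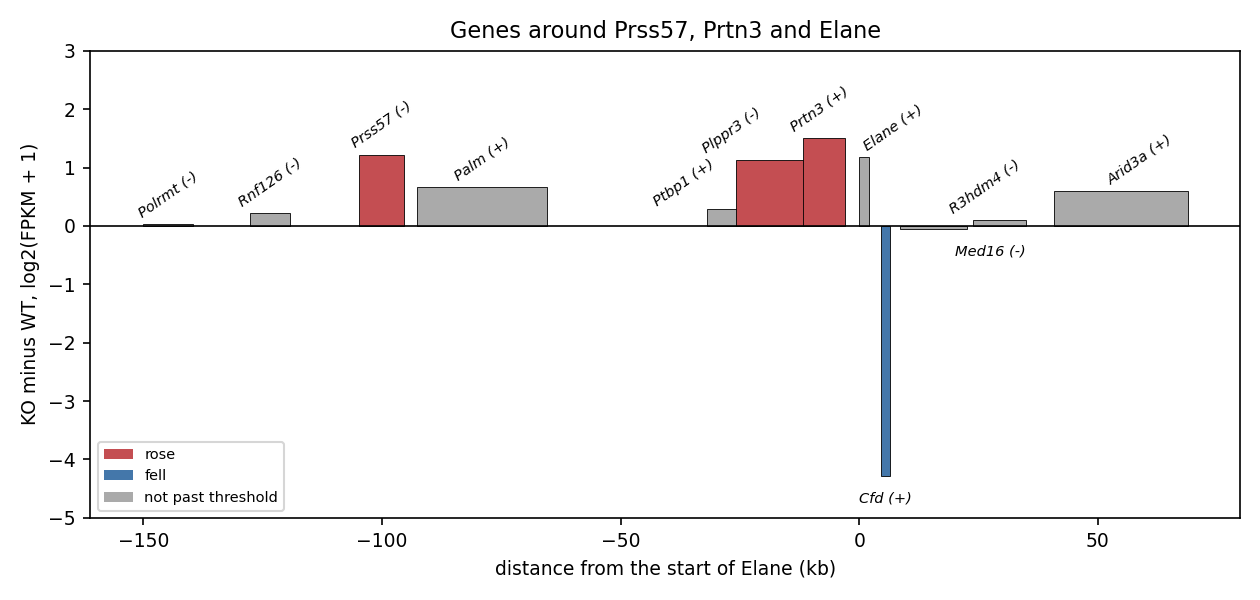
Difference of each tested gene (KO minus WT, log2(FPKM + 1)) around Prss57, Prtn3 and Elane, drawn as bars over the span of the gene against distance from the start of Elane in kb, with the strand in brackets. Prss57, Plppr3 and Prtn3 rose (red), Elane at 1.18 did not pass (grey), and Cfd next to it fell by 4.28 (blue).

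The named protein-coding genes whose profile over the 6 libraries was most like the mean of the 6 were ranked by Pearson's r among 11466 genes, as a description. The 10 most alike were Rab32, Sypl, Naaa, Mettl8, Calr, Tmem273, Ttc13, Ap3s1, Cst7 and Mfsd13a, with r from 0.995 to 0.998. The r includes the difference between the groups, so that these genes were higher in KO follows from how they were chosen, and their calls below are no further evidence. Tmem273, a membrane protein, was at 5.87, 8.47 and 6.74 FPKM in WT and at 19.8, 15.4 and 16.5 in KO (1.19, adjusted p = 0.0159). Ap3s1, a subunit of the AP-3 adaptor that sorts cargo to lysosome-related organelles, was at 45.7, 62.2 and 52.4 FPKM against 124, 95.3 and 101 (0.99, adjusted p = 0.0291). Mfsd13a had a difference of 0.91 (adjusted p = 0.0167) and Naaa, a lysosomal amidase, one of 0.55 (adjusted p = 0.0491), which with pan-leukocyte scaling was 0.18 (adjusted p = 0.224). Calr and Cst7 are described above, and Rab32, Sypl, Mettl8 and Ttc13 did not pass, with differences of 0.51, 0.30, 0.29 and 0.35. With 1 library left out the highest adjusted p was 0.0614 for Tmem273 and 0.0704 for Mfsd13a (lost without WT replicate 1 or KO replicate 2), 0.1 for Ap3s1 (lost without any but WT replicate 2) and 0.155 for Naaa (lost whichever was left out).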

How the data were processed

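Bone RNA of 3 wild-type and 3 MIR29cb2-/- libraries was sequenced after Trizol extraction and Illumina TruSeq preparation, per the labels' protocols. The authors deposited FPKM values for 54532 genes. Bowtie 0.12.2 and mm10 were named, per the submitters' processing notes; the sources used here give no counting tool, annotation, strand use or scaling (not given). Gene identifiers were matched to GENCODE M21 (54495 matched, 37 did not). FPKM times exon length moved in steps, and 96.95% of 29600 genes above 0 gave whole reads (tolerance 0.01), fewer on chromosomes 17, 18 and 19. Read numbers cover counting error only.

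Genes averaging 1 FPKM or more were tested on log2(FPKM + 1), which understates changes of low genes, with limma 3.58.1 in R 4.3.3 (variance trend, Benjamini-Hochberg, threshold 0.05). The step was tested on simulated data. Exact permutation tests used scipy 1.17.1 and figures matplotlib 3.10.9. No count model was the main test. Voom on the recovered reads was an alternative.

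The 6 genes and the lists were chosen with earlier results of these data known, so lists are described by counts and medians without set tests. Named genes are the 6, up to 3 genes per list with the smallest p, tested genes within 50 kb, and the 10 genes most alike in profile. Alternatives covered the pseudocount, filter, scaling, variance model, weights, replicate block and each library left out. An alternative that takes out the exon length trend library by library was chosen after seeing the data.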

Additional observations from a re-analysis of the deposited data

How the results depend on the processing

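The 6 primary granule genes kept their direction under all 19 alternatives. The number past the threshold was 5 in the reported analysis, 1 with no filter on low values, 0 to 4 with 1 library left out, and 6 with quantile normalization, pan-leukocyte scaling, no variance trend, library weights, voom or the exon length trend removed. Over the alternatives the log2 differences were 0.66 to 1.16 for Mpo, 0.79 to 1.35 for Elane, 1.12 to 1.72 for Prtn3, 1.24 to 1.70 for Ctsg, 1.06 to 1.61 for Ms4a3 and 0.86 to 1.38 for Prss57, and the adjusted p of Elane was 0.0124 to 0.245. Deviations of same-numbered libraries from their group means had r of -0.49, -0.27 and 0.16. With 3 libraries per group such r cannot tell whether the replicate numbers mark pairs. With a replicate block 0 of the 6 and 127 genes in all passed (19 higher, 108 lower). Genes past the threshold were 703, against 143 with no filter, 365 with a mean of at least 5 FPKM, 2418 with pan-leukocyte scaling, 3354 with library weights, 1213 with the length trend removed, 62 to 418 with 1 library left out, and 239 without both WT replicate 2 and KO replicate 1; fewer samples or a different set of genes tested are part of these settings, and other causes were not tested. Among other named genes some small differences turned negative. With pan-leukocyte scaling these were Unc13d (-0.02), Rhag (-0.21), Sypl (-0.06), Mettl8 (-0.02), Supt4a (-0.29), Mks1 (-0.15), Ptbp1 (-0.09), R3hdm4 (-0.28), Rnf126 (-0.16) and Polrmt (-0.29). With library weights they were Rhag (-0.05) and Supt4a (-0.01), and Polrmt was at -0.00097 with the length trend removed and -0.08 without both libraries. With 1 library left out, Hba-a2 ranged from -0.07 to 0.96, Supt4a from -0.07 to 0.23 and Polrmt from -0.04 to 0.10. Each of the 6 genes had at least 474 reads in each library, and the part of depth in the results was not tested.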
